A study of Mus musculus with 10 samples.

Results

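The 10 genes described here are acute phase reactants of the liver and components of interleukin-6 (IL-6) signalling: Saa1, Saa2, Saa3, Orm1, Orm2, Hp, Lcn2, Il6ra, Stat3 and Socs3. They were chosen by symbol, and all 10 are among the 17274 genes of the deposited expression table. The livers came from wild-type mice that had all been fed CDAHFD, a choline-deficient and L-amino acid-defined diet rich in fat that induces nonalcoholic steatohepatitis. Of the 10 livers, 5 were from mice given an adeno-associated virus (AAV) encoding the microRNA miR-181d-5p and 5 from mice given a control AAV, in both cases by intravenous injection. No group on a normal diet was analysed here, so levels are compared only among steatohepatitic livers. The promoter of the vector, the dose, and the age and sex of the mice are not given here, and the labels do not tie each liver to its own animal. The p-values therefore measure the spread between these samples.

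In the acute phase response, inflammatory cytokines make hepatocytes secrete a set of plasma proteins. IL-6 binds its receptor, encoded by Il6ra, and the shared subunit gp130, encoded by Il6st. JAK kinases then phosphorylate STAT3, which drives reactant genes together with C/EBP and NF-kB factors. STAT3 also induces Socs3, whose product binds gp130 and JAK and dampens the signal. Saa1 and Saa2 encode serum amyloid A proteins carried on high density lipoprotein, and Saa3 encodes a serum amyloid A that is also made outside hepatocytes. Orm1 and Orm2 encode alpha-1-acid glycoproteins, Hp encodes the haemoglobin scavenger haptoglobin, and Lcn2 encodes lipocalin-2, which binds bacterial siderophores.

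The agent tested is the microRNA, and its mature sequence (RefSeq, GRCm38.p6, chr8:84178759-84178781, reverse strand) is shown because its seed, bases 2 to 8 in capitals, decides which transcripts it can pair with.
mmu-miR-181d-5p: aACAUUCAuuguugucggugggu
A script searched the longest annotated 3′ UTR of each gene for letters that match that seed, either 8 bases long (8mer, TGAATGTA) or 7 bases long (TGAATGT, called 7mer-m8, and GAATGTA, called 7mer-A1). Only Saa3 held one, a 7mer-A1 that begins at base 128 of a 1956-base 3′ UTR. It lies at chr7:46714781-46714787 (mm10, reverse strand), in exon 2 of 2 of the transcript ENSMUST00000210913.1, and is shown in capitals within its context.
Saa3 site: tctttccacggGAATGTAggtgaaatctg
The other annotated Saa3 transcript with a 3′ UTR, of 128 bases, held no match. A gene length was inferred from the FPKM as the smallest that gave whole reads in every liver. For Saa3 it was 531 bases, beside 555 bases for that shorter transcript and 2200 bases for the one with the match. Such a length does not tell which transcript was counted. For Saa1 it was 1029 bases, although the Saa1 transcript searched has 609 bases.
No match was found in the longest 3′ UTR of the other 9 genes, among them those of Il6ra (7102 bases), Stat3 (3701 bases) and Socs3 (1474 bases). Such a match was present in 2700 (23.0%) of the 11763 tested genes whose 3′ UTR is annotated. A match describes letters and does not show that the site is used, and the longest 3′ UTR may not be the one used in liver.

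The promoters of Saa1 and Saa2 are shown because these neighbouring genes varied together from liver to liver, as described further on. Each window runs from 250 bases before the annotated start to 50 bases after it (RefSeq, GRCm38.p6), with the match to the C/EBP motif TTGCNNAA in capitals. The Saa1 window is chr7:46742931-46743230 on the reverse strand, and the Saa2 window is chr7:46751583-46751882 on the forward strand.
Saa1: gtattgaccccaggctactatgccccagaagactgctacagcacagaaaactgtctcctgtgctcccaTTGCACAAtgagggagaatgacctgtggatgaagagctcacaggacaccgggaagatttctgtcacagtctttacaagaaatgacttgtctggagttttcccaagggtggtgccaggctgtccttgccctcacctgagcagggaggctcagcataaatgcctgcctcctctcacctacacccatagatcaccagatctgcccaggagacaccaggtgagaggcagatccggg
Saa2: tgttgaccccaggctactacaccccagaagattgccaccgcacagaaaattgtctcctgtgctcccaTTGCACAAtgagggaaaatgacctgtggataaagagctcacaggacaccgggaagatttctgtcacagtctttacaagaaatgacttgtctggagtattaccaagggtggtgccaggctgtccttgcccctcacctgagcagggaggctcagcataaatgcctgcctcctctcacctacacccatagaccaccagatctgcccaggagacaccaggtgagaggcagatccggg
The Saa1 and Saa2 windows were identical at 287 of 299 aligned bases (95.4% of all columns, which hold 2 gap letters), and the match TTGCACAA begins 182 bases before the start in Saa1 and 183 bases before it in Saa2. Their coding sequences were identical at 351 of 369 bases (95.1%). The Saa3 window differed more, at 50.1% identity with that of Saa1.
Windows were held for 8 of the 10 genes. The C/EBP motif was also present in Saa3, Orm2 and Lcn2, and 8.71% of 9659 promoters of tested genes hold it. A STAT motif, TTCNNNGAA, was found in Socs3 alone of the 8 and is held by 7.09% of those promoters. An NF-kB motif was found in Il6ra and Socs3 and is held by 26.4% of promoters. Both strands were searched, and no 2 matches overlapped. The Socs3 window (chr11:117969317-117969616, reverse strand) is shown with its STAT match, TTCTTAGAA at 154 bases before the start, and its NF-kB match, GGGAGGGGCC at 97 bases before it, in capitals.
Socs3: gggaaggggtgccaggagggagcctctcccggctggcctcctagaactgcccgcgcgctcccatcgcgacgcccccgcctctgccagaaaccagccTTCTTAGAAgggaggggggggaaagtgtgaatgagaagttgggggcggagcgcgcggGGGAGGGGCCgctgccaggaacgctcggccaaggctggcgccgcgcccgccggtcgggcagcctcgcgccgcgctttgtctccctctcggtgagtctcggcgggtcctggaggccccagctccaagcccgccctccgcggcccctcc

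Each library of polyadenylated RNA held 18985912 to 20657019 reads assigned to genes. Levels are given in FPKM, reads scaled by gene length and library total. Hepatocyte markers summed to 35820 to 40680 FPKM in miR-181d-5p livers, against 34350 to 40700 FPKM in control livers, and none of the 10 was at 0. In 2 control livers these genes stood apart. Control liver 1 had the lowest level of all 10 livers for each of the 7 reactants. Control liver 5 had 57 reads of Il6, against at most 4 reads in each other liver, and the highest Socs3. Results are therefore also given without these livers. Group differences were tested with limma on log2(FPKM + 1) over the 12053 genes whose level averaged 0.5 FPKM or more, and a call needed a Benjamini-Hochberg adjusted p under 0.05.

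Across the 10 genes, no difference between miR-181d-5p and control livers passed the test. By limma 0 of 10 had an adjusted p under 0.05, and the same held for 0 of all 12053 genes (0.0%). Of the 10, 6 had a higher and 4 a lower mean log2 level in miR-181d-5p livers, with a median log2 change of 0.03, against -0.02 over all genes tested. At an unadjusted p under 0.05 there were 2, Il6ra and Stat3, both lower in miR-181d-5p livers. Over all genes 1768 (14.7%) met that limit, 607 higher (5.04% of all genes) and 1161 lower (9.63% of all genes). Voom on recovered whole reads also called 0 of the 10, with the same 2 below the unadjusted limit. In 0 of the 10 genes did the groups fail to overlap, against 298 of all genes (2.47%), 1.02% of all genes higher and 1.45% lower. Without control liver 1, 1 of the 10 genes was higher in miR-181d-5p livers, and without control liver 5 it was 6.

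**Figure D1:**
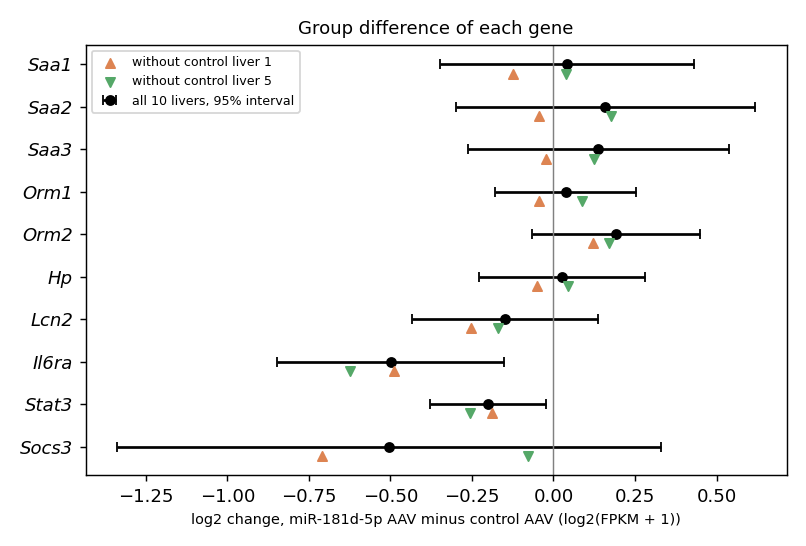
Log2 change of each gene on the log2(FPKM + 1) scale (x axis, miR-181d-5p AAV minus control AAV) with its 95% interval as a bar, and the same change without control liver 1 or control liver 5 as triangles (n = 5 livers each). The intervals of Il6ra and Stat3 lie below 0, the Socs3 change shrinks to -0.08 without control liver 5, and 5 of the 6 changes above 0 move below 0 without control liver 1.

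The secreted reactants made up a similar share of each group's reads. The 7 genes took 0.805 ± 0.0511% of reads in miR-181d-5p livers and 0.803 ± 0.115% in control livers (SD, n = 5 each). Hp alone took 0.534 to 0.662% in miR-181d-5p livers, against 0.481 to 0.716% in control livers. In bulk tissue, fewer cells of a type and less RNA per cell cannot be told apart, which applies to every level given here.

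Saa1 (chr7:46740497-46742980, mm10, reverse strand) stood at 209.9, 196.6, 189.8, 161.9 and 151.8 FPKM in miR-181d-5p livers 1 to 5. In control livers 1 to 5 it stood at 109.8, 162.9, 245.0, 217.6 and 174.1 FPKM. All miR-181d-5p values lay inside the control range. The means were 182.0 ± 24.3 FPKM with miR-181d-5p and 181.9 ± 52.2 FPKM with the control vector (SD, n = 5 each). The log2 change was 0.04 (SE 0.18, 95% interval -0.35 to 0.43, limma adjusted p = 0.926), and -0.13 without control liver 1. With 1 liver left out at a time, it ran up to 0.16.

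Saa2 (chr7:46751790-46754313, forward strand) stood at 143.8, 147.3, 138.1, 121.0 and 101.1 FPKM in miR-181d-5p livers. Control livers 1 to 5 held 65.0, 102.6, 167.4, 151.4 and 121.2 FPKM. Control livers 1 and 3 gave the lowest and the highest value of all, as they did for Saa1. The log2 change was 0.16 (SE 0.21, 95% interval -0.30 to 0.62, limma adjusted p = 0.740), and -0.05 without control liver 1. With 1 liver left out at a time, it ran up to 0.29. The ratio of Saa1 to Saa2 was 1.402 ± 0.0751 in miR-181d-5p livers and 1.52 ± 0.111 in control livers (SD, n = 5 each; exact permutation p = 0.0714, two-sided). Reads of copies this alike may have been split between Saa1 and Saa2 by the authors' counting, so the separate levels are uncertain.

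Saa3 (chr7:46711998-46715700, reverse strand) is the reactant whose longest annotated 3′ UTR holds the seed match printed above. It stood at 53.5, 51.2, 59.6, 62.1 and 68.2 FPKM in miR-181d-5p livers. The control livers had 33.8, 56.0, 86.3, 50.6 and 51.3 FPKM. The miR-181d-5p values again lay inside the control range. The means were 58.9 ± 6.78 FPKM with miR-181d-5p and 55.6 ± 19.1 FPKM with the control vector. The log2 change was 0.14 (SE 0.18, limma adjusted p = 0.741), and -0.02 without control liver 1. With 1 liver left out at a time, it ran up to 0.31. Among miR-181d-5p livers, Saa3 was highest in liver 5, where Saa1 and Saa2 were lowest.

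Orm1 (chr4:63344560-63348163, forward strand) varied least among miR-181d-5p livers, at 1020, 948.2, 951.4, 969.3 and 927.1 FPKM. Its levels in control livers were 744.6, 879.3, 1047, 980.1 and 1080 FPKM. The coefficient of variation was 3.64% with miR-181d-5p and 14.4% with the control vector. The log2 change was 0.04 (SE 0.10, 95% interval -0.18 to 0.25, limma adjusted p = 0.877), and -0.05 without control liver 1. With 1 liver left out at a time, it ran up to 0.09. Orm2 (chr4:63362449-63365878, forward strand) stood at 216.4, 186.2, 199.1, 185.0 and 167.0 FPKM in miR-181d-5p livers. In control livers it stood at 136.6, 147.6, 183.3, 218.5 and 157.2 FPKM. Control liver 4 lay above every miR-181d-5p liver and 3 control livers lay below every one. Orm2 averaged 113.1% of its control mean, with a log2 change of 0.19 (SE 0.12, 95% interval -0.07 to 0.45, limma adjusted p = 0.454) and 0.12 without control liver 1 or 0.29 without control liver 4. The coding sequences of Orm1 and Orm2 were identical at 89.9% of bases, so shared reads make their split uncertain.

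Hp (chr8:109575128-109579172, reverse strand) was the most abundant of the 10 genes in every liver. It stood at 4601, 4275, 3970, 4812 and 4920 FPKM in miR-181d-5p livers. Control livers 1 to 5 held 3574, 4596, 5321, 4138 and 4671 FPKM. The groups overlapped fully, with a log2 change of 0.03 (SE 0.12, 95% interval -0.23 to 0.28, limma adjusted p = 0.931), and -0.05 without control liver 1. With 1 liver left out at a time, it ran up to 0.09. With 595744 reads in miR-181d-5p livers and 588870 in control livers, counting error was small beside the spread between livers.

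Lcn2 (chr2:32384633-32388252, reverse strand) was the 1 reactant with a lower mean in miR-181d-5p livers. It stood at 1062, 783.7, 923.3, 880.9 and 784.7 FPKM there. The control livers had 730.8, 995.6, 1132, 1175 and 919.9 FPKM. The groups overlapped: control liver 1 lay below every miR-181d-5p liver, and miR-181d-5p liver 1 lay above control livers 2 and 5 as well. The means were 886.9 ± 115 FPKM with miR-181d-5p and 990.6 ± 178 FPKM with the control vector (SD, n = 5 each). The log2 change was -0.15 (SE 0.13, 95% interval -0.43 to 0.14, limma adjusted p = 0.600), and -0.25 without control liver 1 (limma adjusted p = 0.288), -0.10 without control liver 3 and -0.08 without control liver 4. Lcn2 is also a granule protein of neutrophils. Of 12 neutrophil markers 8 were tested, 2 with a higher and 6 with a lower mean log2 level in miR-181d-5p livers. Without control liver 5 the split was 5 higher and 3 lower, and without miR-181d-5p liver 5 it was 4 and 4. Mmp8, a neutrophil collagenase named after its values were seen, was lower without overlap, at 0.410 to 0.585 FPKM with miR-181d-5p and 0.587 to 0.935 FPKM with the control vector (limma adjusted p = 0.250). Its groups were separate by a margin far smaller than the spread within either, at levels near the filter of 0.5 FPKM. Of all genes tested, 2.47% did not overlap, and 1.45% of all genes tested were lower without overlap. The marker sum was 56.9 to 89.7 FPKM with miR-181d-5p and 54.8 to 124.7 FPKM with the control vector. The defining markers Ly6g, Elane, Mpo and Ltf fell below the filter, none of the 12 was at 0 in every liver, and the part of neutrophils in the Lcn2 level was not tested.

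**Figure D2:**
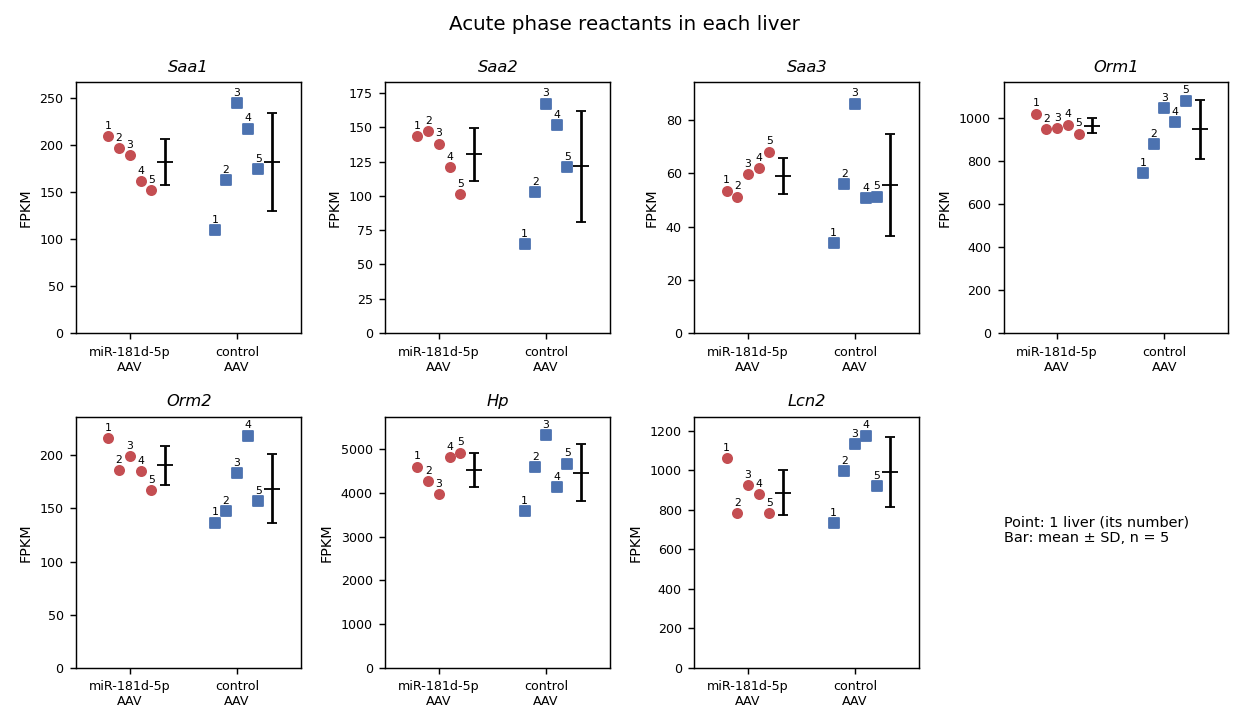
FPKM of the 7 reactants in each liver (y axes start at 0; points are livers, labelled with their number; bars are mean ± SD, n = 5). Control liver 1 is the lowest point in each panel, and the miR-181d-5p livers lie closer together than the control livers, for example at 101.1 to 147.3 FPKM with miR-181d-5p and 65.0 to 167.4 FPKM with the control vector for Saa2.

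The reactants therefore differed more between control livers than between the groups. Relative to the control mean, the 7 genes averaged 0.18, 0.04, 0.08, 0.05 and -0.03 on the log2 scale in miR-181d-5p livers 1 to 5. In control livers 1 to 5 the same average was -0.50, -0.05, 0.35, 0.18 and 0.02. Control liver 3 had the highest level of all 10 livers for 4 of the 7 reactants, control liver 4 for 2, and control liver 5 for 1. The SD of log2 levels was larger in control livers for all 10 genes, and over all genes tested it was larger in control livers for 76.1%. Saa2 spanned 1.46-fold among miR-181d-5p livers and 2.57-fold among control livers, and Socs3 spanned 1.41-fold with miR-181d-5p and 7.19-fold with the control vector. The coefficient of variation of the reactants ran from 3.64% (Orm1) to 14.7% (Saa2) with miR-181d-5p, and from 14.4% (Orm1) to 34.4% (Saa3) with the control vector.

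**Figure D3:**
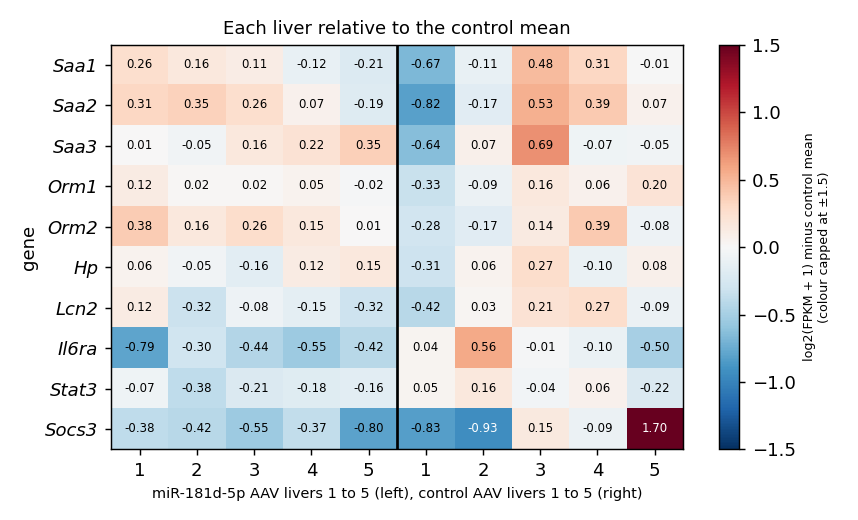
Log2(FPKM + 1) of each gene in each liver minus the gene's control mean (rows are genes, columns are livers, with miR-181d-5p livers left of the line and control livers right of it). Control liver 1 is blue for each reactant, with an average of -0.50, control liver 3 is red with an average of 0.35, and Socs3 in control liver 5 is the darkest red cell.

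Pairs of the 10 genes were compared over the 10 livers, 45 pairs in all, on the log2 scale. These correlations are descriptions of shared variation among livers that also share library and group. Saa1 and Saa2 followed each other most closely, with Pearson's r = 0.977 (permutation p = 6e-05, Benjamini-Hochberg adjusted p = 0.0027) and Spearman's rho = 0.976 (permutation p = 4e-05, adjusted p = 0.0018). Without control livers 1 and 3, the livers farthest from the median of Saa1, r was 0.935, and after subtracting group means it was 0.987. Copies as alike as Saa1 and Saa2 may share reads, and the part of shared reads in this r was not tested. Of the 21 pairs of reactants all had r above 0, from 0.152 to 0.977, and 12 did when the 2 livers farthest from the median of one gene of the pair were left out. By Pearson's r 7 of the 45 pairs had an adjusted permutation p under 0.05, and by Spearman's rho 2 pairs did, with Saa1 and Saa2 in both. Besides Saa1 with Saa2, the Pearson pairs were Saa3 with Hp, Saa2 with Orm1 and Orm2, and Saa1 with Orm1, Orm2 and Lcn2. The adjusted permutation p was 0.04995, just under the limit, for Saa2 with Orm1 and for Saa1 with Orm1, Orm2 and Lcn2. Of these pairs, Saa2 with Orm2 (r = 0.819) and Saa1 with Orm2 (r = 0.777) had r of 0.842 and 0.805 without control livers 1 and 3. Without those 2 livers, r fell from 0.812 to 0.367 for Saa1 with Orm1. It fell from 0.844 to 0.426 for Saa2 with Orm1 and from 0.782 to 0.599 for Saa1 with Lcn2.
Saa3 did not keep to the pattern of Saa1. Their r was 0.633 (permutation p = 0.0576, adjusted p = 0.202) and their rho 0.0667 (permutation p = 0.865, adjusted p = 0.927), and r was -0.73 without control livers 1 and 3, so the relation rests on those livers. Saa3 and Hp had r = 0.851 (permutation p = 0.00253, adjusted p = 0.038) and rho = 0.770 (permutation p = 0.0123, adjusted p = 0.139), but r was 0.446 without the 2 livers farthest from the median of Saa3. Orm1 and Socs3 had rho = 0.939 (permutation p = 0.00023, adjusted p = 0.00518) and r = 0.682 (permutation p = 0.0721, adjusted p = 0.203). Without control livers 1 and 5 their r was 0.887. Il6ra and Stat3 had r = 0.671 (permutation p = 0.032, adjusted p = 0.146), which was 0.403 after subtracting group means.

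Over all tested genes, the level most like that of Saa1 across the 10 livers was that of Saa2, followed by Nmi (r = 0.957), an interferon-induced partner of MYC and STAT proteins. Vamp5, Ube2e3 and Vps28 came next, with r of 0.925, 0.924 and 0.924. For Lcn2 they were Tbkbp1 (r = 0.929), an adaptor of the kinase TBK1, Zfp677, P2ry14, Zfp467 and Rab32 (r from 0.918 to 0.928). For Socs3 they were Sat1 (r = 0.972), Ctla2a, Tnfaip6, Ier2 and Junb (r from 0.966 to 0.971). These genes were picked as the highest of 12053 correlations, so their r is a description.

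The receptor gene Il6ra (chr3:89864059-89913196, reverse strand) had the smallest p of the 10 genes. It stood at 5.55, 8.21, 7.38, 6.76 and 7.47 FPKM in miR-181d-5p livers. Its levels in control livers were 10.7, 15.8, 10.2, 9.61 and 7.04 FPKM. Every miR-181d-5p liver lay below control livers 1 to 4, and control liver 5 lay among the miR-181d-5p livers. Il6ra averaged 7.07 ± 0.995 FPKM with miR-181d-5p and 10.7 ± 3.18 FPKM with the control vector (SD, n = 5 each), which is 66.3% of the control mean. The log2 change was -0.50 (SE 0.16, 95% interval -0.85 to -0.15), with a limma adjusted p of 0.248, so it did not pass. Its exact permutation p was 0.0318 (two-sided), or 0.338 adjusted over all genes tested. It ranked 409th of 12053 genes by p. Leaving out 1 liver at a time gave changes of -0.62 to -0.36, the smallest of these without control liver 2, and over all alternatives the adjusted p ran from 0.146 to 0.501. It rests on 2348 reads with miR-181d-5p and 3527 with the control vector. The level counts the whole gene and does not separate membrane and soluble forms of the receptor.

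Stat3 (chr11:100885098-100939540, reverse strand), the transcription factor downstream of the receptor, stood at 29.48, 23.64, 26.56, 27.12 and 27.61 FPKM in miR-181d-5p livers. In control livers it stood at 31.98, 34.68, 30.01, 32.32 and 26.45 FPKM. As with Il6ra, control livers 1 to 4 lay above every miR-181d-5p liver and control liver 5 did not. Stat3 averaged 86.5% of its control mean, with a log2 change of -0.20 (SE 0.08, 95% interval -0.38 to -0.02, limma adjusted p = 0.311, exact permutation p = 0.0556). Without control liver 5 the change was -0.26 (limma adjusted p = 0.152). Transcript level says nothing of STAT3 phosphorylation, which was not measured here.

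Socs3 (chr11:117966079-117970047, reverse strand), the feedback inhibitor, stood at 8.06, 7.83, 7.08, 8.13 and 5.77 FPKM in miR-181d-5p livers. Control livers 1 to 5 held 5.64, 5.19, 12.1, 10.1 and 37.3 FPKM. The mean was 7.37 ± 0.990 FPKM with miR-181d-5p and 14.1 ± 13.3 FPKM with the control vector, and control liver 5 set most of that gap. The log2 change was -0.50 (SE 0.39, 95% interval -1.34 to 0.33, limma adjusted p = 0.543), and without control liver 5 it was -0.08 (limma adjusted p = 0.837). The ratio of Socs3 to Stat3 was 0.209 to 0.331 in miR-181d-5p livers, against 0.150 to 0.402 in control livers 1 to 4 and 1.41 in control liver 5.

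Il6ra, Stat3 and Socs3 are also expressed by other liver cells. Markers of macrophages and monocytes, stellate cells and cholangiocytes had lower means in miR-181d-5p livers, those of Kupffer cells were mixed, and none passed the adjusted test. Over all genes tested, 54.5% were lower in miR-181d-5p livers, and 9.63% were lower at an unadjusted p under 0.05. For macrophages and monocytes all 10 markers had a lower mean log2 level there, 3 at an unadjusted p under 0.05, and summed to 1201 to 2511 FPKM with miR-181d-5p and 1910 to 2704 FPKM with the control vector. For stellate cells and fibroblasts all 9 markers were lower, 7 at that limit, with sums of 328.2 to 431.4 FPKM with miR-181d-5p and 437.8 to 609.8 FPKM with the control vector. Cholangiocyte markers were lower in 5 of 5 tested of 7 listed, 4 at that limit, with sums of 12.9 to 35.4 FPKM with miR-181d-5p and 24.3 to 43.7 FPKM with the control vector. The 6 Kupffer cell markers split into 4 higher and 2 lower, or 3 and 3 without miR-181d-5p liver 4, with sums of 499.4 to 588.6 FPKM with miR-181d-5p and 512.7 to 655.4 FPKM with the control vector. Endothelial markers were lower in 4 of 6, with sums of 111.9 to 118.5 FPKM with miR-181d-5p and 112.4 to 129.5 FPKM with the control vector. Lymphocyte markers were lower in 5 of 6 tested of 8 listed, but in 3 of 6 without control liver 4, with sums of 9.13 to 14.1 FPKM with miR-181d-5p and 9.21 to 19.5 FPKM with the control vector. No marker of these lists was at 0 in every liver. The part of these cells in the levels of Il6ra, Stat3 and Socs3 was not tested.

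**Figure D4:**
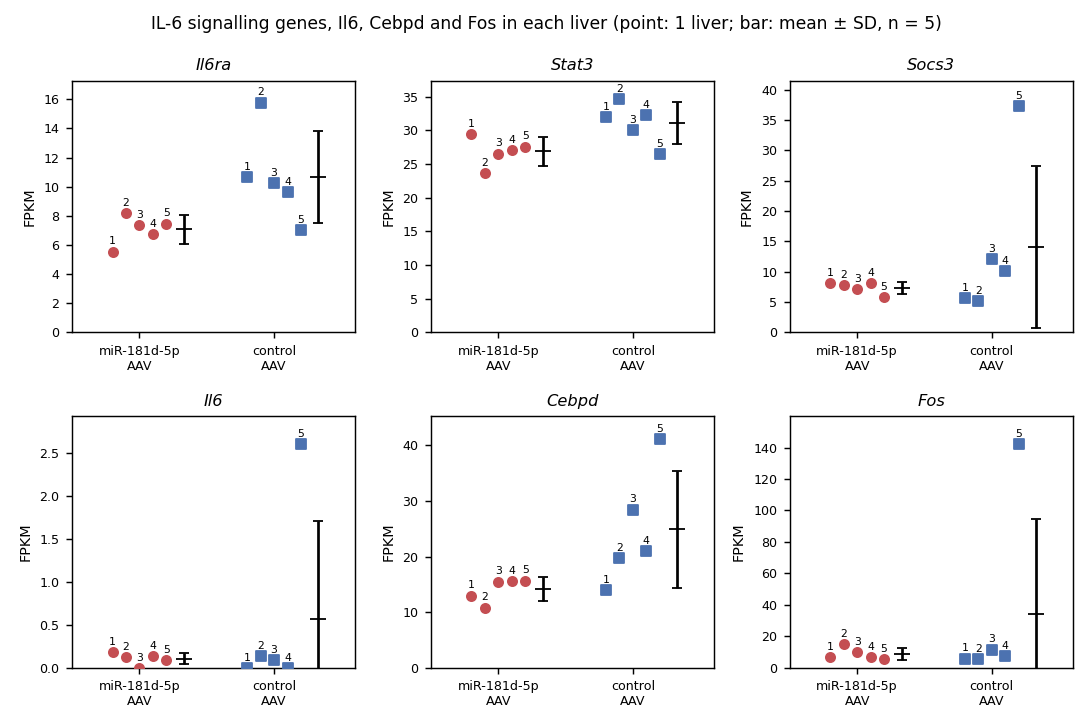
FPKM of Il6ra, Stat3, Socs3, Il6, Cebpd and Fos in each liver (y axes start at 0; points are livers, labelled with their number; bars are mean ± SD, n = 5, drawn only down to 0). Control liver 5 is the lowest control liver for Il6ra and Stat3 (7.04 and 26.4 FPKM) and the highest liver for Socs3, Il6, Cebpd and Fos (37.3, 2.60, 41.1 and 142.3 FPKM).

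The ligand Il6 was close to undetected outside control liver 5. It had 4, 3, 0, 3 and 2 reads in miR-181d-5p livers 1 to 5. In control livers 1 to 5 it had 0, 3, 2, 0 and 57 reads. Its mean lay below the filter, so it was not tested. Fos, an immediate early gene, was at 142.3 FPKM in control liver 5 and at most 15.2 FPKM in each other liver, and Junb, another, was at 203.3 FPKM there. Control liver 5 was thus the highest liver for Il6, Socs3 and Fos, and without it the log2 change of Fos was 0.18, against -0.64 with all livers. The part of Il6 in the Socs3 level of that liver was not tested.

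In level, averaged over all 10 livers, Hp led at 4488 FPKM. Orm1 and Lcn2 followed at 954.6 and 938.7 FPKM and could not be ordered, since Orm1 was above Lcn2 in 4 of 5 miR-181d-5p livers and 2 of 5 control livers. Saa1 and Orm2 came next at 181.9 and 179.7 FPKM, with Saa1 above Orm2 in 1 of 5 miR-181d-5p livers and 3 of 5 control livers. Saa2 (125.9 FPKM), Saa3 (57.2 FPKM) and Stat3 (29.0 FPKM) each lay below the preceding gene in all 10 livers. Socs3 (10.7 FPKM) lay below Stat3 in 9 livers, and it was above Il6ra (8.87 FPKM) in 5 of 10.

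Other genes of the acute phase response were read from lists written with earlier results of these data known. Of 33 other positive acute phase proteins, which increase in inflammation, 32 were tested, with 16 higher and 16 lower in miR-181d-5p livers, 0 called by limma and a median log2 change of 0.00. The metallothioneins Mt1 and Mt2, small metal-binding proteins induced by metals, glucocorticoids and IL-6, had the smallest p. Mt2 stood at 93.0, 73.5, 78.1, 91.9 and 66.4 FPKM in miR-181d-5p livers. The control livers had 77.6, 81.0, 213.7, 230.4 and 208.3 FPKM, so that control livers 1 and 2 lay with the miR-181d-5p livers and the other 3 stood apart. Its log2 change was -0.85 (SE 0.30, limma adjusted p = 0.257). Mt1 had the same pattern, at 51.2% of its control mean (limma adjusted p = 0.257), and the lower control livers were again 1 and 2. Steap4, a metalloreductase, averaged 84.3% of its control mean.

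Negative acute phase proteins, whose levels drop in inflammation, were higher in miR-181d-5p livers for 12 of the 13 genes listed (median log2 change 0.16), while 54.5% of all genes tested were lower. None was called by limma, and after quantile normalization 10 of 13 were higher with a median of 0.07. At an unadjusted p under 0.05 there were 3, all higher, against 5.04% of all genes higher at that limit. Alb, Ttr and Apoa1 of this list are also hepatocyte markers, of which 7 of 10 were higher. The sums of the 13 genes overlapped, at 53990 to 60620 FPKM with miR-181d-5p and 52240 to 60220 FPKM with the control vector. Afm, which encodes the vitamin E-binding protein afamin, was the 1 member whose groups did not overlap. It ran from 59.6 to 63.7 FPKM in miR-181d-5p livers, against 43.4 to 58.3 FPKM in control livers. Over all genes tested, 1.02% were higher without overlap. The log2 change of Afm was 0.28 (SE 0.08, limma adjusted p = 0.231). Its exact permutation p was 0.00794, the smallest that 252 labellings can give, or 0.315 adjusted over all genes tested. Ttr, the thyroxine carrier transthyretin, averaged 116.4% of its control mean (limma adjusted p = 0.311), and Serpina6, corticosteroid-binding globulin, 148.0% (limma adjusted p = 0.317). Their exact permutation p was 0.0318 and 0.119. Serpina6 overlapped between the groups, at 75.4 to 179.8 FPKM with miR-181d-5p and 56.4 to 122.6 FPKM with the control vector.

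Upstream of STAT3, 7 of 13 IL-6 family and upstream cytokines were tested, 3 higher and 4 lower, and 0 were called. The median log2 change of -0.03 had no stable sign, running from -0.08 without control liver 1, where 0 were higher, to 0.07 without control liver 5. Il6, Il11, Lif, Osm, Il27 and Il22 fell below the filter. Clcf1, a cytokine of the IL-6 family, averaged 2.35 ± 0.809 FPKM with miR-181d-5p and 3.15 ± 0.927 FPKM with the control vector (SD, n = 5 each), a log2 change of -0.32 that was -0.19 without control liver 5. Of 13 receptors and receptor proteases 12 were tested, 2 higher and 10 lower, with a median log2 change of -0.14 and 0 called. Osmr, the oncostatin M receptor, ran at 78.1% of its control mean (log2 change -0.26, limma adjusted p = 0.257). Il6st, the gp130 gene, was named after its values were seen. It stood at 30.04, 28.85, 28.69, 27.45 and 34.6 FPKM in miR-181d-5p livers. Its levels in control livers were 50.15, 44.34, 29.66, 34.3 and 27.82 FPKM, with control livers 1 and 2 highest and the other 3 within the range of the miR-181d-5p livers (log2 change -0.28, limma adjusted p = 0.387).

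Among 14 JAK kinases, STATs and C/EBP factors, 4 were higher and 10 lower, with a median log2 change of -0.09 and 0 called. Of the lower ones, 3 had an unadjusted p under 0.05, and 9.63% of all genes tested were lower at that limit. Without control liver 5, 1 was higher and 13 lower with a median of -0.15, and without control liver 2 the median was -0.05. Cebpd, a C/EBP factor induced by IL-6, stood at 12.96, 10.8, 15.5, 15.65 and 15.68 FPKM in miR-181d-5p livers. In control livers it stood at 14.03, 19.7, 28.45, 21.04 and 41.12 FPKM. Only control liver 1 lay within the miR-181d-5p range. The log2 change of Cebpd was -0.70 (SE 0.22, limma adjusted p = 0.240), and -0.50 without control liver 5. Cebpb, its close relative, averaged 161.6 ± 16.2 FPKM with miR-181d-5p and 205.3 ± 35.7 FPKM with the control vector (SD, n = 5 each; log2 change -0.33, limma adjusted p = 0.257). Nfkb1, an NF-kB subunit gene, averaged 84.3% of its control mean.

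Of 13 negative regulators of JAK-STAT signalling 5 were higher and 8 lower, with a median log2 change of -0.06 and 0 called. That median was -0.035 without miR-181d-5p liver 4, -0.022 without control liver 2 and -0.14 without control liver 5. The smallest p belonged to Ptpn6, Socs5 and Ptpn1, with log2 changes of -0.22, -0.17 and -0.20. Of 13 other STAT3 target genes 3 were higher and 10 lower, with a median of -0.21, and 5 higher and 8 lower with a median of -0.06 without control liver 5. Mcl1, a survival factor of the BCL2 family, ran from 27.4 to 32.8 FPKM in miR-181d-5p livers, against 33.5 to 42.4 FPKM in control livers, without overlap (log2 change -0.27, SE 0.08, limma adjusted p = 0.235, exact permutation p = 0.00794). Bcl2l1 and Timp1 had log2 changes of -0.21 and -0.39, and that of Timp1 was -0.23 without miR-181d-5p liver 4. Of 9 receptors and clearance genes of acute phase proteins 8 were tested, 2 higher and 6 lower, with 0 called and a median log2 change of -0.19 that was -0.07 without control liver 3 and -0.12 without miR-181d-5p liver 2. Tlr4, a receptor reported to respond to serum amyloid A as well as to endotoxin, ran from 1.80 to 2.336 FPKM in miR-181d-5p livers, against 2.337 to 3.51 FPKM in control livers (log2 change -0.32, limma adjusted p = 0.240). Its groups were thus separate by a margin far smaller than the spread within either, and the share of 1.45% of all genes applies here too. Lrp1, an endocytic receptor, had a log2 change of -0.31, and -0.17 without control liver 2. It ran from 44.7 to 54.1 FPKM in miR-181d-5p livers, against 81.6 and 89.9 FPKM in control livers 1 and 2 and 45.6 to 52.5 FPKM in control livers 3 to 5. Tlr2 had a log2 change of -0.21, and -0.12 without miR-181d-5p liver 4.

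All 13 immediate early genes had a lower mean log2 level in miR-181d-5p livers, with a median log2 change of -0.52 and 0 called, but without control liver 5 the median was -0.08 and 4 of 13 were higher. Egr1 stood at 11.6 to 20.4 FPKM in miR-181d-5p livers, against 15.4 to 25.2 FPKM in control livers 1 to 4 and 96.2 FPKM in control liver 5. Nr4a3 and Nr4a2, which encode orphan nuclear receptors, had log2 changes of -0.58 and -0.24, which were -0.34 and -0.13 without control liver 5. The change of Egr1 was -0.75, and -0.29 without that liver.

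**Figure D5:**
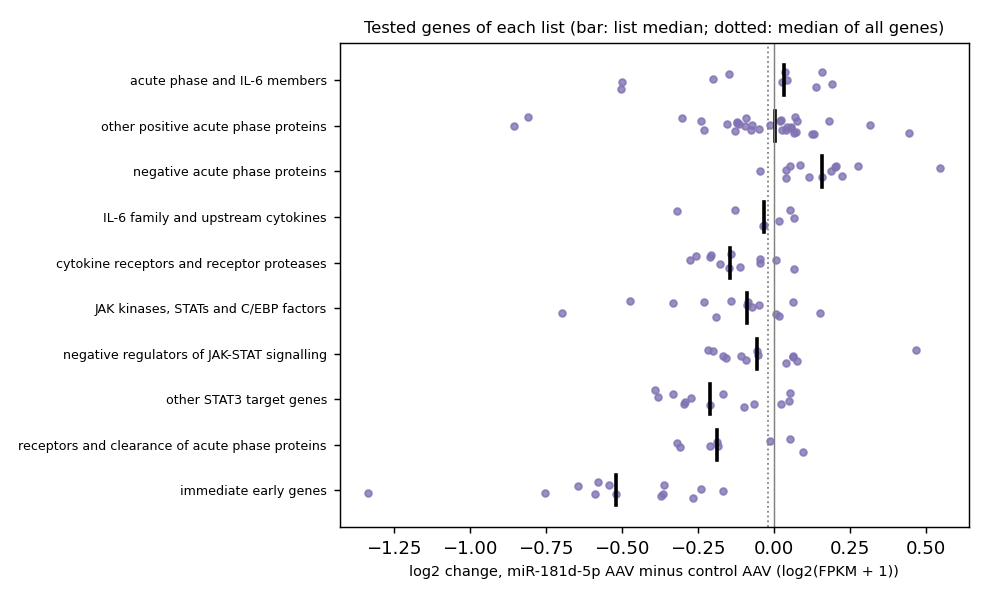
Log2 change of each tested gene (points; x axis, miR-181d-5p AAV minus control AAV on the log2(FPKM + 1) scale) in each list, with the list median as a bar and the median of all genes as a dotted line at -0.02. The medians run from -0.52 for immediate early genes to 0.16 for negative acute phase proteins, and no gene shown passed the adjusted test.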

How the data were processed

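Gene expression was measured by RNA-seq in 10 mouse livers. Per the labels' protocols, RNA was isolated with a mirVana kit and sequenced from TruSeq Stranded mRNA libraries. FPKM values, 1 column per liver, are what the authors deposited. Per the submitters' processing notes, reads were handled with HISAT2 2.2.1, HTSeq 0.13.5, Trimmomatic 0.38, FastQC 0.11.9, DESeq2 1.18.1 and R 3.4.1 on mm10, with no role or order given for any tool. The FPKM formula and whether counting used strand are not given in the sources used here. Genes that overlap or resemble each other may share reads. The FPKM values gave back whole reads, within 0.02 of a read, for 17273 of 17274 genes (99.994%), with library totals of 18985912 to 20657019.

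The main test was limma 3.58.1 (R 4.3.3) with group as the only term and a mean-variance trend in eBayes, on log2(FPKM + 1) of genes averaging 0.5 FPKM or more, two-sided, with Benjamini-Hochberg adjustment over 12053 genes. Log2 changes on this scale understate those of low genes. Intervals are 95% limma intervals. Exact permutation tests used all 252 labellings of the livers, and correlations 100000 random permutations. The fit was tested on simulated data with the same SD in both groups. In the real data the SD was larger in control livers for 76.1% of genes, which that test does not cover. Alternatives changed the pseudocount, the filter, the scaling and the variance model, used voom on recovered reads or a replicate block, or left out 1 liver. Promoters and the mature microRNA came from RefSeq (GRCm38.p6), positions and 3′ UTRs from GENCODE vM21. Other software was Python 3.11.15, numpy 2.4.6, pandas 2.3.3, scipy 1.17.1, Biopython 1.88 and matplotlib 3.10.9.

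The genes described and all lists were chosen with earlier results of these data known. Genes named from a list were the 3 with the smallest p in it, beside the 10 genes, Il6, Fos, Egr1 and the 5 genes most like Saa1, Lcn2 and Socs3 by Pearson's r, and predicted genes, RIKEN clones and pseudogenes were left out. Genes outside that rule are said to be named after their values were seen, and Junb is one of the genes most like Socs3.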

Additional observations from a re-analysis of the deposited data

Results flagged for a closer look

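Of 78 combinations of a named gene and a group, 8 held an outlying liver on the FPKM or the log2 scale. Such a liver lay farther from its group than Dixon's limit for 5 samples allows. On a single scale, chance alone gives that in about 5% of groups of normally distributed values. That share cannot be set directly against the 8, since either scale sufficed and many of the genes were named for a small p. Of the 8, 7 were high in control liver 5. Socs3 stood at 37.3 FPKM there, against 5.19 to 12.1 FPKM in the other control livers, and passed the limit on the FPKM scale but not on the log2 scale, while the others passed on both. Il6 stood at 2.60 FPKM in control liver 5, against 0 to 0.138 FPKM in the other control livers. Fos stood at 142.3 FPKM (others 5.56 to 11.5 FPKM), Egr1 at 96.2 FPKM (15.4 to 25.2 FPKM) and Nr4a3 at 3.14 FPKM (0.589 to 1.07 FPKM). Il1a, a cytokine that can start the acute phase response, stood at 13.2 FPKM (5.64 to 6.86 FPKM), and Clcf1 at 4.76 FPKM (2.40 to 2.95 FPKM). Among miR-181d-5p livers, Steap4 stood at 159.3 FPKM in liver 1, against 118.7 to 129.0 FPKM in the other 4.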

How the results depend on the processing

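None of the 10 genes and none of the 125 other pathway genes tested passed the adjusted limma test under any of the alternatives. Over all genes the count of calls was 0 in the main test, 1 with a replicate block and 0 to 3 when 1 liver was left out (3 without control liver 1, 1 without control liver 5 and 1 without miR-181d-5p liver 3). The same-numbered livers of the groups did not deviate together (r of -0.28 to 0.01). With 5 livers a group this cannot decide whether the numbers mark a pairing, which the labels do not state. The block left 1 of the 10 genes below an unadjusted p of 0.05. The cause of these shifts was not tested.

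Il6ra, Stat3, Socs3, Lcn2 and Orm2 kept their direction under all alternatives. With all livers, the change of Hp was -0.0022 after scaling to a common sum, that of Orm1 -0.013 after quantile normalization and that of Saa1 -0.015 with array weights. When 1 liver was left out, changes ran from -0.13 to 0.16 for Saa1, -0.046 to 0.29 for Saa2, -0.022 to 0.31 for Saa3, -0.045 to 0.089 for Orm1 and -0.051 to 0.093 for Hp. They ran from -0.034 to 0.11 for Ctf1, -0.93 to 0.18 for Fos and -0.21 to 0.065 for Il1a. Unadjusted calls split into 607 higher and 1161 lower genes in the main test, 997 and 942 with quantile normalization, and 347 and 1266 with the common sum. With 5 livers a group, the 95% intervals of the 7 reactants leave room for changes of -0.43 to 0.62 on the log2 scale, and Il6 had too few reads to be tested.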
